A study of Mus musculus with 13 samples.

Results

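The genes described are 10 members of 2 families of inhibitory or activating receptors on mouse leukocytes, found by symbol among the 31053 genes of a single-cell count matrix of mouse lung. They are the sialic acid-binding lectins Siglecf, Siglece, Siglecg, Siglech, Siglec1, Cd22 and Cd33, the glycoprotein Cd200 and its receptor family members Cd200r1 and Cd200r3. Lung cells of C57BL/6 mice were measured in 4 single-cell groups with 1 sample each: Asthma (sensitized and challenged with ovalbumin), PPE-emphysema (weekly intratracheal porcine pancreatic elastase), PPE-recovery (a single elastase dose followed by rest) and Control. A further 9 samples, labelled Acute injury, Con and emphysema with 3 each, were not analysed here. A single mouse stands behind each single-cell group by the study's methods, and no age of the mice was found in the labels or methods. The matrix pools 7 libraries that its barcodes number 1 to 7, and neither the labels nor the barcodes tie a library to a group. It was therefore treated as 1 sample, the libraries are given by number, no condition was compared and no test was run.

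Of 37344 barcodes, 33618 had at most 10% of their unique molecular identifiers (UMIs) in mitochondrial genes and were kept, with a median of 6684.5 UMIs per cell. The kept cells of a library numbered 2992 to 7626, and 153 barcode sequences occurred in more than 1 library. Libraries 4, 5 and 6 stood apart: 35.3% to 40.7% of their UMIs were hemoglobin, they held no endothelial or fibroblast cells, and their epithelial genes Sftpc and Scgb1a1 summed to at most 0.574 CPM (UMIs of a gene per 1000000 UMIs of the cells summed). In libraries 1, 2, 3 and 7 the same sum was 8141 to 28830 CPM and hemoglobin at most 0.0310%, so the label "lung" was met by its markers in these 4 alone. Libraries 4, 5 and 6 had 3000, 5000 and 5000 barcodes, and their shallowest kept cells had 5735, 3439 and 3946 UMIs. In libraries 1, 2, 3 and 7 the shallowest had 304 to 501. Clusters were named from marker genes that exclude all members, and none of the members was used for clustering. Of 58 clusters, 47 were named and made up 28 classes, written below as "-like", while 1207 cells stayed unnamed. The members together held 0.0323% of all UMIs.

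Siglecs are lectins of the immunoglobulin superfamily that bind sialic acids on glycans of the same or a neighbouring cell. Most carry inhibitory tyrosine motifs in the cytoplasmic tail, which recruit the phosphatases SHP-1 (Ptpn6) and SHP-2 (Ptpn11), whereas Siglec-H lacks them and signals with the adaptor DAP12 (Tyrobp). CD200 is a surface glycoprotein without a signalling tail of its own. It binds CD200R1 on myeloid cells, which restrains them through Dok2 and Rasa1, and the related CD200R3 and CD200R4 pair with activating adaptors instead. In the mouse lung, Siglec-F is the surface protein by which flow cytometry separates alveolar macrophages and eosinophils from other leukocytes.

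Most members lie in gene clusters (GRCm38, the build given as mm10 in the submitters' processing notes, gene ends from GENCODE M21). Siglecf (chr7:43351341-43359531, plus strand), Siglecg (chr7:43408204-43418358, plus), Cd33 (chr7:43524216-43544428, minus) and Siglece (chr7:43651070-43660161, minus) follow each other with gaps of 48.7, 105.9 and 106.6 kb. Cd22 (chr7:30865402-30880342, minus) overlaps the antisense gene Gm29439 and lies 18.8 kb from Mag, which encodes a further Siglec. Siglech (chr7:55768178-55778925, plus) and Siglec1 (chr2:131069220-131086765, minus) stand alone. Cd200r1 (chr16:44765736-44794978, plus), Cd200r4, Cd200r2 and Cd200r3 (chr16:44943678-44981380, plus) are neighbours with gaps of 16.8, 27.9 and 27.8 kb, and the ligand gene Cd200 (chr16:45382135-45409053, minus) lies 400.8 kb beyond Cd200r3.

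RefSeq promoter windows (GRCm38.p6) were at hand for 8 of the 10 members, and the 250 bases before the start site were compared between all of these and the windows of Cd200r2, Cd200r4 and Mag. The longest shared stretches were between genes of the same gene cluster. They are printed because the levels of Cd200r4 and Cd200r3 and those of Siglecf and Cd33 are compared below. Each line gives the 160 bases before the start, 5′ to 3′ on the strand of the gene, with the stretch identical in both genes of a pair in capitals.
Cd200r4, chr16:44820568-44820727, plus strand, in an intron of a longer transcript: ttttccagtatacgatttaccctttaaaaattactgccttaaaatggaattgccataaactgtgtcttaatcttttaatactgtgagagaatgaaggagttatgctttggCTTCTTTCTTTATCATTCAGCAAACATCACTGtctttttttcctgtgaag
Cd200r3, chr16:44943518-44943677, plus strand, between genes: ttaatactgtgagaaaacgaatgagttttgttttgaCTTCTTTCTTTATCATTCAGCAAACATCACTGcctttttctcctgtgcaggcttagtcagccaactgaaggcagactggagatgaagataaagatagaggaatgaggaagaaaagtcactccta
Siglecf, chr7:43351181-43351340, plus strand, between genes: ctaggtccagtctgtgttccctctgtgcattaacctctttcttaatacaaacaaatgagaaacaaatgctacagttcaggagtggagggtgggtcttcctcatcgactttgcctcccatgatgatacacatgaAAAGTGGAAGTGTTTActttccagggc
Cd33, chr7:43533172-43533331, minus strand, in an intron of a longer transcript: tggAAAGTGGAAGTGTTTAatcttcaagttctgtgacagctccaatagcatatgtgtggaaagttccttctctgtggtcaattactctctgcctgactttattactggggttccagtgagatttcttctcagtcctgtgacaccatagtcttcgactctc
The first pair shared 32 bases and the second 16, and each stretch occurred in 2 of 32851 windows, those of its own pair. The 16 bases include the letters ggaagt, a form of the core bound by ETS factors, which on either strand stood in 3 of the 14 windows compared (Siglecf, Cd33 and Siglech) and in 19.7% of all windows. Such a match describes letters, not a bound site.

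The class with the highest level was one of leukocytes for every member but Cd200, which was highest in endothelium. Levels are given as CPM over all cells of a class, with exact 95% Poisson intervals in parentheses that cover counting error alone. Siglecf and Siglec1 had most of their UMIs in alveolar macrophage-like cells, and the class with the highest level was neutrophil-like for Siglece and Cd33, B cell-like for Siglecg and Cd22, plasmacytoid dendritic cell-like for Siglech, basophil or mast cell-like for Cd200r3 and large-vessel endothelial-like for Cd200. Alveolar and Arg1 and Mmp12 macrophage-like cells led for Cd200r1 with overlapping intervals. Between 6 (Cd200r3) and 24 (Cd200) of the 28 classes held at least 10 UMIs of a member.

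**Figure D1:**
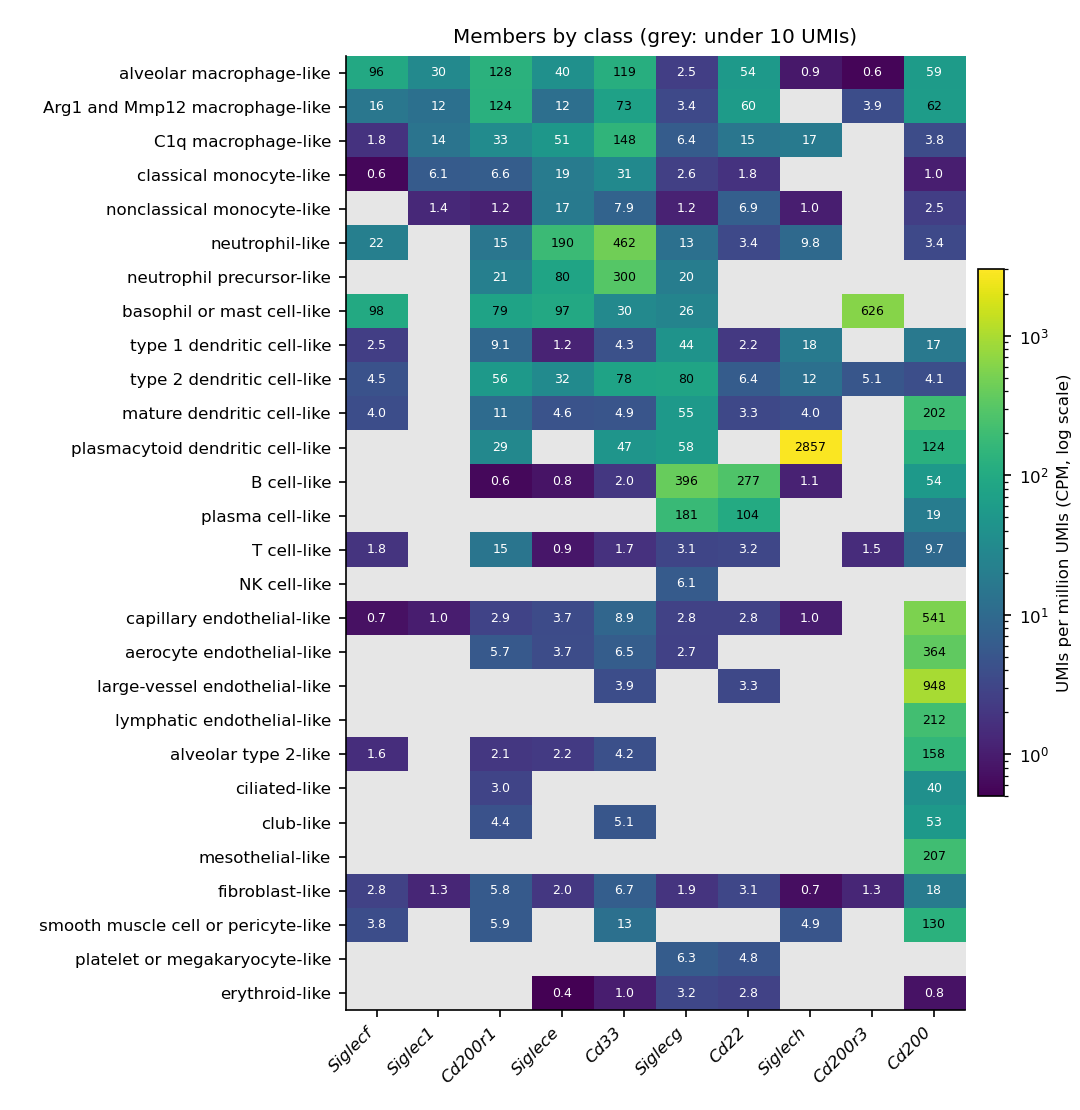
Level of each member (columns) in each class (rows) as CPM on a log colour scale, with the value printed in each field and fields under 10 UMIs in grey. Siglech reaches 2857 in plasmacytoid dendritic cell-like cells and 17.9 or less elsewhere, and Cd200 fills the endothelial rows with 212.3 to 948.0.

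Siglecf, the receptor that marks alveolar macrophages and eosinophils at the protein level, had 4541 of its 5399 UMIs in alveolar macrophage-like cells, and all macrophage classes together held 89.0%. Its level was 96.1 CPM (93.3 to 98.9) in the 3108 alveolar macrophage-like cells and 98.3 (75.8 to 125) in the 351 basophil or mast cell-like cells, which overlap. Most of the latter class was eosinophil-like when divided below: 220 of its 351 cells, with 42 of its 65 Siglecf UMIs. Its basophil or mast cell-like part alone had 51.2. Neutrophil-like cells followed at 21.6 (18.4 to 25.1) and Arg1 and Mmp12 macrophage-like cells at 15.99 (14.1 to 18.1). C1q macrophage-like cells, the interstitial type, had 1.78 (14 UMIs), and B cell-like cells of libraries 1, 2, 3 and 7 had 0.663 (6 UMIs). With each cell thinned to 1000 UMIs, 10.3% of alveolar macrophage-like cells (9.23 to 11.4) had a Siglecf UMI, against 0.131% of capillary endothelial-like cells, which should lack it. Unthinned shares were 58.6% and 0.478% at median depths of 14839.5 and 5032.0 UMIs. In T cell-like cells 18 of the 26 UMIs came from 1 cell.

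The level of Siglecf in alveolar macrophage-like cells differed between libraries far beyond counting error. It was 110.7 CPM in library 1, 63.2 in library 2, 189.3 in library 3 and 41.8 in library 7, and the intervals of no 2 of these overlapped. The ratio of library 3 to library 7 was 4.53 (4.08 to 5.04). Arg1 and Mmp12 macrophage-like cells were likewise highest in library 3 with 73.1 CPM and lowest in library 7 with 6.53, with 19.5 and 22.7 in libraries 1 and 2. Of the 75 cells of library 3 in this class 65 lay in the shallow cluster 23 (median 799.5 UMIs, 48.1 CPM), and most cells of the other libraries in cluster 9 (15.02 CPM). Within cluster 23 library 3 had 158.5 CPM (76.0 to 291.5, 10 UMIs). Library 2 at 81.9 (32.9 to 168.7) and library 1 at 31.7 (8.63 to 81.1) overlap it there, and library 7 at 5.48 (0.139 to 30.5) does not. Most alveolar macrophage-like cells of libraries 2, 3 and 7 lay in cluster 2 and most of library 1 in cluster 18. Within cluster 2 the order was the same, at 126.5, 67.3, 193.2 and 44.0 CPM in libraries 1, 2, 3 and 7. A further cluster, led by the cell-cycle genes Ccnb1 and Plk1, had 104.4, 35.8, 184.4 and 26.9 in the same order. Whether the libraries differ by treatment, mouse or handling cannot be told apart.

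Siglecf in neutrophil-like cells was similar in the lung libraries, at 34.6, 31.1, 28.7 and 33.4 CPM in libraries 1, 2, 3 and 7, and lower in the hemoglobin-rich libraries 4, 5 and 6, at 6.42 (2.58 to 13.2), 9.10 (4.54 to 16.3) and 13.6 (7.90 to 21.7). The neutrophil value thus did not follow the macrophage value of the same library. Most neutrophil-like cells of library 4 lay in cluster 26, a cluster with few cells of the lung libraries and a Siglecf level of 6.05 CPM. Within cluster 5, which both kinds of library fill, the values were 27.3 to 34.2 CPM in the lung libraries. Libraries 5 and 6 had 14.5 (5.85 to 29.97, 7 UMIs) and 16.4 (8.18 to 29.3, 11 UMIs), with intervals that overlap those of each lung library. No kept cell of libraries 4, 5 and 6 had fewer than 3439 UMIs, while the median of cluster 5 was 2947.5. The 2 kinds of library thus hold neutrophil-like cells of unlike depth, and the part of depth in their values was not tested. Counted as cells, 2418 had a Siglecf UMI, of which 1821 were alveolar macrophage-like, 153 Arg1 and Mmp12 macrophage-like, 143 neutrophil-like and 50 basophil or mast cell-like. Most cells of this last class were eosinophil-like when it was divided below (220 of 351). The flow gate of the study parts Siglec-F-positive cells by CD11c, the product of Itgax. An Itgax UMI was found in 97.6% of the Siglecf-positive alveolar macrophage-like cells (96.8 to 98.3, exact binomial interval), in 15.4% of the neutrophil-like ones (9.90 to 22.4) and in 24.0% of the basophil or mast cell-like ones (13.1 to 38.2), at median depths of 15437, 3165 and 1252.5 UMIs. The part of depth in this order was not tested.

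The next comparison set Siglecf in alveolar macrophage-like cells against cells with a UMI of Ccr3, the eotaxin receptor of eosinophils, and its direction turned on how the second group was drawn. Outside the macrophage clusters 208 cells had a Ccr3 UMI, and with 39 Siglecf UMIs their level was 50.8 CPM. The ratio of alveolar macrophage-like to these cells was 1.89 (1.38 to 2.66), a log2 difference of 0.92 (0.47 to 1.41). Of genes at 50 CPM or more in either group, 19.4% were over 2-fold higher and 17.6% over 2-fold lower in the macrophages, and Siglecf was not among them. The 208 cells were mixed: 115 lay in the basophil or mast cell cluster, 29 were T cell-like and 25 neutrophil-like. The 115 had 212.4 CPM (143.3 to 303.2) and the other 93 had 14.4 CPM (9 UMIs). Against the 115 alone the ratio was 0.452 (0.316 to 0.671), past 2-fold like 25.6% of genes in that comparison, and against the 93 it was 6.69 (3.52 to 14.6). With at least 2 Ccr3 UMIs, 59 cells remained and the ratio was 0.963 (0.573 to 1.76).

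The basophil or mast cell cluster itself split into an eosinophil-like part of 220 cells, a basophil or mast cell-like part of 97 cells and 34 unnamed cells, a division made after the values had been seen. The eosinophil-like part had Ccr3 at 1118 CPM, Alox15 at 987 and Prg2 (major basic protein) at 611, while Epx and Mcpt8 were at 0 UMIs. Il5ra, a further eosinophil marker, had only 4 UMIs there (27.8 CPM). The median depth of these cells was only 546.5 UMIs. The basophil or mast cell-like part had Mcpt8 at 924, Fcer1a at 909 and Cpa3 at 763 CPM, and Prg2 at 0 UMIs. Ccr3 and Alox15 were not absent from it, at 51.2 and 253.4 CPM in 18.6% and 57.7% of its cells. In the shallower eosinophil-like part they were found in 43.2% and 35.45% of cells. Siglecf was 291.8 CPM (210.3 to 394.4, 42 UMIs in 30 cells) in the eosinophil-like part and 51.2 (31.7 to 78.2, 21 UMIs) in the other. The ratio of alveolar macrophage-like cells to the eosinophil-like part was 0.329 (0.243 to 0.458). Thinned to 500 UMIs, 13.9% of 122 eosinophil-like cells (8.33 to 21.4) and 4.83% of 3104 alveolar macrophage-like cells (4.11 to 5.65) had a Siglecf UMI, with 98 and 4 shallower cells left out.

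The ratio to Ccr3-positive cells also changed direction between libraries, whereas that to the eosinophil-like part was below 1 in both libraries with a value. Of the 220 eosinophil-like cells, 193 were from library 7, where the macrophage level was lowest. In library 7 alveolar macrophage-like cells had 41.8 CPM of Siglecf, against 199.3 (130.2 to 292.0) in Ccr3-positive cells outside macrophages and 263.3 (182.3 to 367.9) in the eosinophil-like part, and the ratios of the macrophages to them were 0.210 (0.141 to 0.325) and 0.159 (0.112 to 0.232). In library 1 the Ccr3-positive cells had 49.8 CPM (7 UMIs) and a ratio of 2.22 (1.07 to 5.55), but the 25 eosinophil-like cells had 600.2 CPM (8 UMIs) and a ratio of 0.185 (0.0932 to 0.429). In library 2 the ratio to Ccr3-positive cells was 3.99 (1.10 to 33.0) with 2 UMIs among 21 cells. Libraries 3 to 6 held fewer than 20 cells of one or the other kind. Without library 7 the log2 difference over all libraries was 2.44, and without library 3 it was 0.17.

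**Figure D2:**
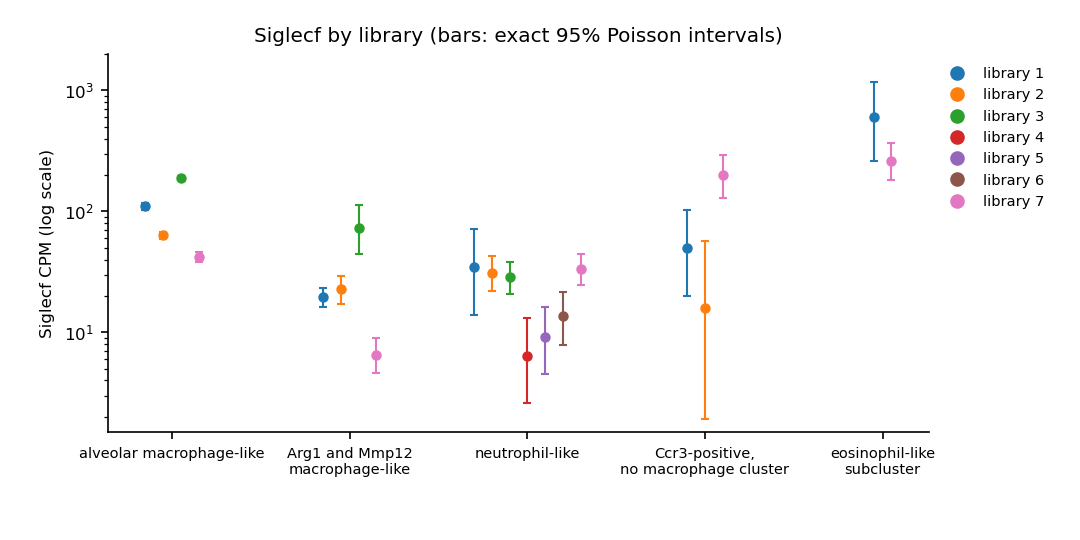
Siglecf in CPM (log axis) in 3 classes, in Ccr3-positive cells outside macrophage clusters and in the eosinophil-like subcluster, 1 point per library with at least 20 cells, bars being exact 95% Poisson intervals. Alveolar macrophage-like points run from 41.8 to 189.3 and the eosinophil-like points stand at 263.3 and 600.2.

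Siglec1, the sialoadhesin of tissue macrophages, had 85.9% of its UMIs in macrophage classes. Its level was 29.8 CPM (28.2 to 31.4) in alveolar macrophage-like cells, 14.0 (11.5 to 16.9) in C1q and 12.3 (10.6 to 14.1) in Arg1 and Mmp12 macrophage-like cells, and the last pair overlap. Classical monocyte-like cells had 6.11 (5.20 to 7.14) and nonclassical ones 1.36 (13 UMIs). In alveolar macrophage-like cells it moved less between libraries than Siglecf, from 23.4 CPM in library 1 to 34.4 in library 7, a ratio of 1.47 (1.22 to 1.76), with 30.8 and 29.3 in libraries 2 and 3.

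Siglece and Cd33, Siglecs of myeloid cells, shared their leading classes. Siglece was 190.0 CPM (180.5 to 199.9) in neutrophil-like cells and 80.3 (66.6 to 96.0) in neutrophil precursor-like cells, with C1q macrophage-like cells at 50.8, alveolar ones at 39.8 and type 2 dendritic cell-like cells at 32.3. Cd33 was 462.4 (447.5 to 477.6) in neutrophil-like cells, 299.7 (272.6 to 328.8) in their precursors, 147.9 in C1q and 118.7 in alveolar macrophage-like cells. B cell-like cells had 0.8 and 2.0 CPM of the pair. Thinned to 1000 UMIs, 16.2% of neutrophil-like cells had a Siglece UMI and 36.6% a Cd33 UMI, against 0.350% and 0.481% of capillary endothelial-like cells. Of the unthinned UMIs of the capillary class, 47 of 55 for Siglece and 112 of 133 for Cd33 lay in its cluster 34. By library, Siglece in neutrophil-like cells was 88.9 CPM in library 4 and 177.3 to 236.5 in the others, and Cd33 was 275.1 in library 4 and 428.7 to 573.2 in the others. Library 4 holds most of its neutrophil-like cells in cluster 26, where libraries 5 and 6 had 157.9 and 166.8 CPM of Siglece against 92.0 in library 4. The shallowest kept cell of library 4 had 5735 UMIs, the most of any library, and the part of depth was not tested. Siglece was also 437.7 CPM (336.3 to 560.0, 63 UMIs) in the eosinophil-like part of the basophil or mast cell cluster and 2.44 (1 UMI) in the basophil or mast cell-like part. In library 7 it was 472.3 CPM (61 UMIs) in the former.

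Siglecg and Cd22, the inhibitory coreceptors of the B cell receptor, were highest in B cell-like cells. Siglecg reached 395.5 CPM (388.6 to 402.5) there, with 80.1% of its UMIs, and 181.2 (157.6 to 207.5) in plasma cell-like cells. It was also found in every dendritic class: type 2 dendritic cell-like cells had 79.6 CPM (74.0 to 85.6), plasmacytoid ones 58.2 (40.8 to 80.6), mature ones 55.4 (47.4 to 64.5) and type 1 ones 44.4 (39.95 to 49.1), of which each overlaps its neighbour in this order. Cd22 was 276.9 (271.2 to 282.8) in B cell-like and 103.6 (85.9 to 123.8) in plasma cell-like cells. Its next classes were not lymphoid: Arg1 and Mmp12 macrophage-like cells had 59.97 CPM (56.2 to 64.0) and alveolar ones 54.0 (51.9 to 56.1), which held 6.80% and 18.7% of the gene's UMIs. The plasma cell-like class was 1 cluster of 55 cells. Its 10 leading genes held 1 plasma cell marker, Mzb1, beside cell-cycle genes such as Pclaf and Top2a. With classes made without clustering 71 cells were plasma cell-like, and 9 of them lay in this class. Its values may therefore not be those of plasma cells.
By library, Siglecg and Cd22 in B cell-like cells were highest in the hemoglobin-rich libraries 5 and 6. Siglecg was 425.7 and 428.0 CPM there, against 287.1 to 368.9 in the other 5, and Cd22 was 301.6 and 320.1 against 148.5 to 218.5. Most B cell-like cells of libraries 5 and 6 lay in cluster 0, led by Ighd and Fcer2a, and those of libraries 1, 2, 3 and 7 were more often in cluster 11, led by immunoglobulin genes and Mzb1. Cluster 0 had 466.6 CPM of Siglecg and 338.2 of Cd22, and cluster 11 had 328.9 and 199.4. Cluster 15, nearly all from libraries 4, 5 and 6, had 246.5 and 185.7. Within cluster 0 Siglecg was 464.6 and 475.3 in libraries 5 and 6. Libraries 1, 2, 3 and 7 were still lower, at 443.1, 404.4, 450.2 and 366.3. The intervals of libraries 1 (390.2 to 501.2), 2 (341.3 to 475.8) and 3 (380.4 to 529.2) overlap theirs, but that of library 7 (304.4 to 437.0) does not. Library 4, also hemoglobin-rich, had 516.7 (425.5 to 621.7) in 24 cells. Cd22 within cluster 0 was still highest in libraries 5 and 6, at 337.6 and 351.0 against 198.4 to 312.7, though the intervals of library 1 (253.0 to 344.1), library 2 (226.9 to 339.2) and library 7 (255.7 to 378.5) overlap theirs. In libraries 1, 2, 3 and 7 alone the class had 327.9 CPM of Siglecg and 210.1 of Cd22. Thinned to 1000 UMIs, 33.0% of B cell-like cells had a Siglecg UMI and 25.1% a Cd22 UMI, against 0.131% and 0.219% of capillary endothelial-like cells.

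Siglech, which marks plasmacytoid dendritic cells, had the steepest fall from its first to its second class. The 71 plasmacytoid dendritic cell-like cells reached 2857 CPM (2725 to 2993), held 73.3% of the gene's UMIs and stood 159.3-fold above type 1 dendritic cell-like cells at 17.9 (15.2 to 21.04). After thinning to 1000 UMIs, 91.6% of the 71 cells (82.5 to 96.8) had a UMI, and 0 of 2287 capillary endothelial-like cells did. C1q macrophage-like cells had 17.2 CPM (14.4 to 20.3), with UMIs in 6.46% of cells. Without 2 cells of libraries 1 and 7, which held 35.6% of the 135 UMIs, it was 11.1. The level was 9.73, 11.8, 37.6 and 36.3 in libraries 1, 2, 3 and 7. Other low values came mostly from single cells. In neutrophil-like cells 88.3% of 77 UMIs were in 2 cells of library 2, and without these 2 the level was 1.15 CPM in place of 9.77. In alveolar macrophage-like cells 40 of 42 UMIs, and in B cell-like cells 30 of 36, were in 1 cell. Only library 3 held at least 20 plasmacytoid dendritic cell-like cells, at 3319 CPM.

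Cd200, the ligand, had 56.2% of its UMIs in the 4 endothelial classes. Large-vessel endothelial-like cells had 948.0 CPM (916.5 to 980.3), capillary ones 540.6 (528.9 to 552.6), the aerocyte type of capillary 363.9 (345.5 to 383.1) and lymphatic ones 212.3 (190.9 to 235.3), of which no 2 intervals overlap. Mesothelial-like cells at 206.6, mature dendritic cell-like cells at 202.2 and alveolar type 2-like cells at 158.2 followed. Within the large-vessel class cluster 27 had 1081 CPM and cluster 44 had 545.1, and within the capillary class cluster 4 had 602.1 and cluster 34, led by the cell-cycle genes Cenpf and Top2a, had 221.6. Cluster 34 also held the myeloid members Cd33 and Siglece at 46.7 and 19.6 CPM, against 1.69 and 0.642 in cluster 4. Its median depth was 13289 UMIs, against 4849. Whether RNA of other cells lowers its Cd200 level was not tested. At 1000 UMIs per cell, 57.6% of large-vessel and 40.9% of capillary endothelial-like cells had a UMI, against 0.397% of neutrophil-like cells. Arg1 and Mmp12 macrophage-like cells at 61.6 CPM, alveolar ones at 59.2 and B cell-like cells at 53.8 had lower levels, and B cell cluster 0 had 72.6 where cluster 11 had 23.7.

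Cd200r1, the inhibitory receptor for CD200, was highest in macrophages that line the airspaces and in the Arg1 and Mmp12 class. Alveolar macrophage-like cells had 127.8 CPM (124.6 to 131.1) and Arg1 and Mmp12 macrophage-like cells 124.4 (118.9 to 130.1), which overlap. The alveolar level was 73.6 when barcodes over 5% mitochondrial UMIs were left out. Basophil or mast cell-like cells had 78.6 (58.7 to 103.1), type 2 dendritic cell-like cells 56.0 (51.3 to 61.1) and C1q macrophage-like cells 33.2 (29.3 to 37.5). Of the T cell-like cells, those of cluster 14, led by Cxcr6, Icos and Ctla4, had 35.2 CPM (29.6 to 41.4) and those of cluster 12, led by Cd8b1 and Lef1, had 5.63 (4.08 to 7.59). At 1000 UMIs per cell, 11.9% of alveolar macrophage-like cells had a UMI, against 0.219% of capillary endothelial-like cells.

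Ligand and receptor were highest in different classes. Cd200 passed 10% of its own highest class level in 9 classes and Cd200r1 in 9, and plasmacytoid dendritic cell-like cells were the 1 class in both sets, at 13.1% of the highest Cd200 level and 22.8% of the highest Cd200r1 level. This Cd200r1 level of 29.1 CPM rested on 18 UMIs in 13 cells. In library 3, the only library with at least 20 of these cells, Cd200r1 was 4.75 CPM, which is under the 10% line, and Cd200 was 180.4. Each of the 4 endothelial classes had Cd200r1 at 5.71 CPM or less, and 10 of the 23 UMIs behind that value were in 1 aerocyte-like cell. C1q macrophage-like, type 2 dendritic cell-like and neutrophil-like cells had Cd200 at 3.82, 4.10 and 3.43 CPM. The classes highest for Cd200r1 did not lack the ligand. Alveolar and Arg1 and Mmp12 macrophage-like cells had Cd200 at 59.2 and 61.6 CPM, or 6.24% and 6.50% of its highest class level. In alveolar macrophage-like cells 1043 of 3108 cells had UMIs of both genes, where independent detection would give 977.2.

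**Figure D3:**
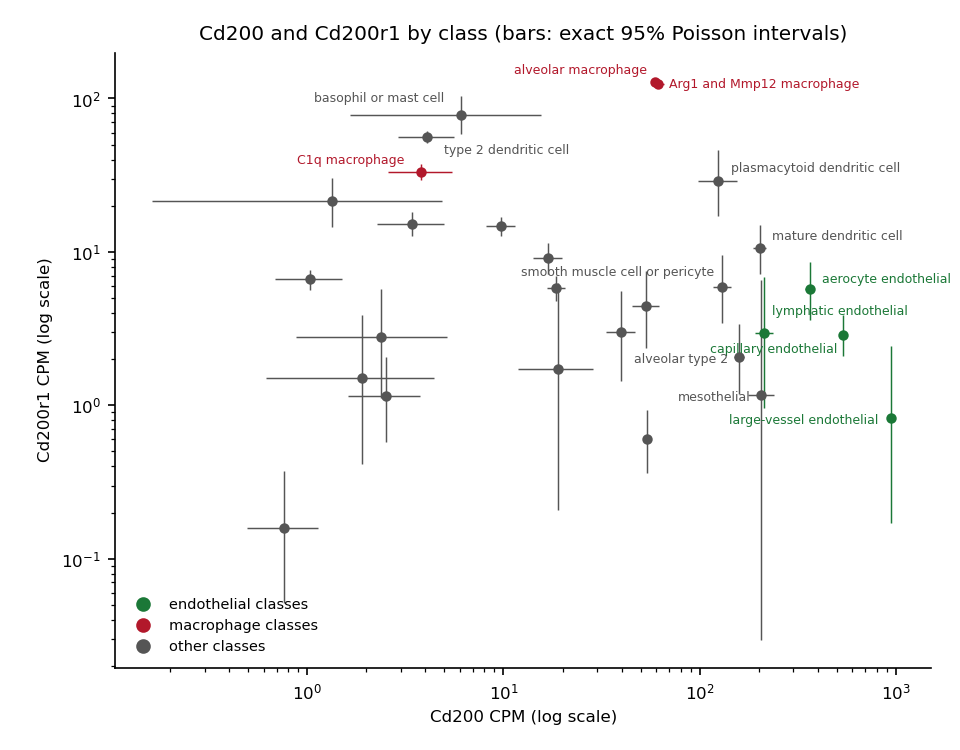
Each point is 1 class, with Cd200 on the horizontal and Cd200r1 on the vertical axis, both as CPM on log axes with exact 95% Poisson intervals as bars. Endothelial classes lie at the lower right with Cd200 of 212.3 to 948.0, and alveolar and Arg1 and Mmp12 macrophage-like classes at the top with Cd200r1 of 127.8 and 124.4.

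Libraries 3 and 7 changed places between macrophages and endothelium in their Cd200 level, while library 2 was above library 1 in each of these classes taken whole. In alveolar macrophage-like cells it was 57.9, 63.8, 35.6 and 79.5 CPM in libraries 1, 2, 3 and 7, and in Arg1 and Mmp12 macrophage-like cells 32.1, 46.5, 18.3 (5 UMIs) and 103.2. Library 7 was thus highest and library 3 lowest in both. In the Arg1 and Mmp12 class 65 of the 75 cells of library 3 lay in cluster 23, whose median depth was 799.5 UMIs, and held 1 Cd200 UMI there (0.401 to 88.3 CPM, which overlaps the other libraries in that cluster), and most cells of libraries 1, 2 and 7 lay in cluster 9. In capillary endothelial-like cells it was 396.1, 548.8, 742.7 and 350.0 CPM and in aerocyte-like cells 260.0, 367.1, 431.2 and 204.5, so that library 3 was highest and library 7 lowest. Large-vessel endothelial-like cells had 676.2, 1067, 1068 and 601.2. Within macrophage cluster 2 the values were 56.4, 68.9, 37.0 and 79.6, and within capillary cluster 4 they were 463.5, 597.5, 817.5 and 381.2, in the same orders as the whole classes. In alveolar cluster 18, with most such cells of library 1, library 1 was above library 2, at 64.1 (57.3 to 71.5) against 28.7 (13.1 to 54.4). In alveolar cluster 28 they had 40.9 and 34.7, with overlapping intervals. Within Arg1 and Mmp12 cluster 9 libraries 1, 2 and 7 had 31.2, 44.9 and 103.3.

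Cd200r1 in macrophages was also lowest in library 3. Alveolar macrophage-like cells had 126.9, 154.9, 70.3 and 147.7 CPM in libraries 1, 2, 3 and 7, a ratio of 2.21 (2.04 to 2.39) between libraries 2 and 3. Arg1 and Mmp12 macrophage-like cells had 92.5, 151.5, 43.8 and 151.9. Cluster 9 had 92.4, 150.6 and 153.2 in libraries 1, 2 and 7, and in the shallow cluster 23, where most cells of library 3 lay, library 3 had 31.7 (3.84 to 114.5, 2 UMIs), which overlaps the other libraries there. Within cluster 2 the alveolar values were 104.6, 162.3, 73.1 and 150.3. Library 3, which had the highest Siglecf level in these cells, therefore had the lowest Cd200 and Cd200r1 levels. Siglece (29.5 to 52.1 CPM), Cd22 (39.0 to 66.8) and Cd33 (102.8 to 133.9) in alveolar macrophage-like cells spanned less than 2-fold between libraries, and Cd33 spanned least, by 1.30-fold (1.19 to 1.42).

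**Figure D4:**
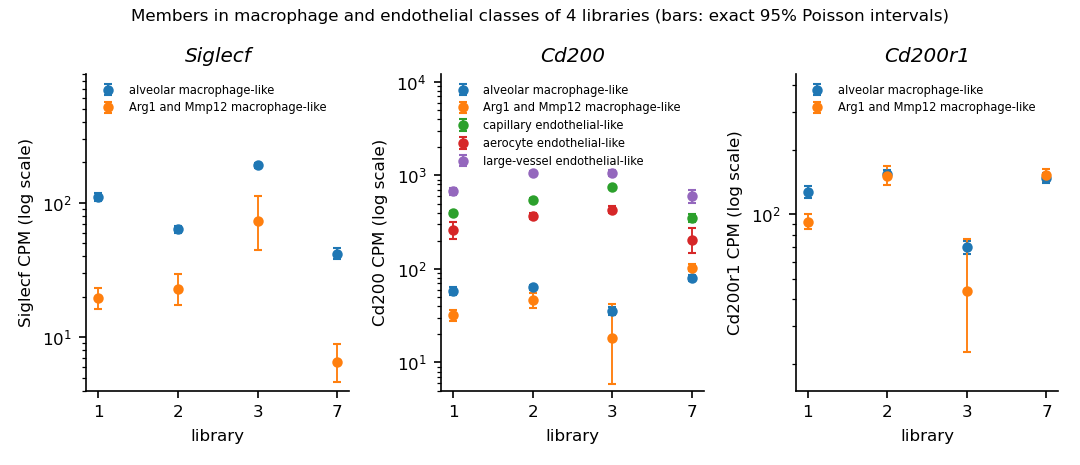
Siglecf, Cd200 and Cd200r1 in CPM in macrophage and endothelial classes of libraries 1, 2, 3 and 7, with exact 95% Poisson intervals as bars. In alveolar macrophage-like cells library 3 is highest for Siglecf at 189.3 and lowest for Cd200 at 35.6 and Cd200r1 at 70.3, while in capillary endothelial-like cells it is highest for Cd200 at 742.7.

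Cd200r3, the activating family member of basophils and mast cells, had 65.1% of its 636 UMIs in the basophil or mast cell-like class. Its level there was 625.8 CPM (567.0 to 689.1), 123.6-fold above type 2 dendritic cell-like cells at 5.06 (3.72 to 6.74) and well above Arg1 and Mmp12 macrophage-like cells at 3.87 (2.95 to 4.98). Within the class it was confined, among the parts that could be named, to the basophil or mast cell-like cells, at 965.0 CPM (872.3 to 1065) with a UMI in 87 of 97 cells. The eosinophil-like part had 0 UMIs in 220 cells, which allows up to 20.8 CPM (3 counts). By library the whole class had 796.3, 742.9, 596.2 and 322.2 CPM in libraries 1, 2, 3 and 7, of which library 7 holds most of the eosinophil-like cells. The basophil or mast cell-like part alone had 1094 and 1124 CPM in libraries 1 and 2. In fibroblast-like cells 17 of 24 UMIs were in 1 cell. The class level of 625.8 was 952.1 when barcodes over 5% mitochondrial UMIs were left out, 961.6 without alignment of libraries and 1015 with classes made without clustering.

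Of the other genes of the families, Cd200r4, whose promoter window shares 32 bases with that of Cd200r3, had a different distribution. It stood at 200.5 CPM (196.4 to 204.5) in alveolar and 185.7 (179.0 to 192.6) in Arg1 and Mmp12 macrophage-like cells, 55.0 in natural killer cell-like cells and 51.4 in the basophil or mast cell-like class. Likewise Siglecf and Cd33, which share 16 bases, had different leading classes. Mag was 28.1 CPM in alveolar and 23.2 in Arg1 and Mmp12 macrophage-like cells, Cd200r2 reached 3.58 in alveolar macrophage-like cells, and Siglec15 had 1 UMI in all kept cells. Reads shared between the related Cd200r genes could have been divided or dropped in counting, and this was not tested.

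Each class was also set against all other kept cells, gene by gene, as a ratio of CPM with no test. In alveolar macrophage-like cells 5 of the 10 members (Siglecf, Siglece, Siglec1, Cd33 and Cd200r1) were over 2-fold higher, where 11.5% of the 14211 genes compared were. In C1q macrophage-like cells these were 4 (Siglece, Siglech, Siglec1 and Cd33), against 5.31% of all genes. Of these Siglech rested on 2 cells, without which it was 11.1 CPM, against 8.27 over all kept cells. In the basophil or mast cell-like class they were 4 (Siglecf, Siglece, Cd200r1 and Cd200r3), against 9.25%, and 63 of the 64 Siglece UMIs behind this were in its eosinophil-like part. Arg1 and Mmp12 macrophage-like cells had 1 (Cd200r1), against 5.55%. Neutrophil-like cells and their precursors had 2 each (Siglece and Cd33), against 7.97% and 4.83%, and B cell-like and plasma cell-like cells 2 each (Siglecg and Cd22), against 11.2% and 12.1%. The remaining classes had 1 or 0: Siglech in plasmacytoid (11%) and type 1 (6.68%) dendritic cell-like cells, Cd200r3 in type 2 ones (6.76%), and Cd200 in mature dendritic (7.16%), large-vessel (17.1%), capillary (19.4%), aerocyte (18.8%), lymphatic (19.6%), mesothelial (21.1%) and alveolar type 2-like (12.9%) cells. The other 10 classes had 0: natural killer cell-like (10.1%), T cell-like (11.1%), classical (5.72%) and nonclassical (6.71%) monocyte-like, ciliated (20.6%), club (5.47%), fibroblast-like (20.5%), smooth muscle cell or pericyte-like (20.4%), platelet or megakaryocyte-like (2.10%) and erythroid (0.908%) cells.

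The genes that act with the members followed the same comparison. Of 9 adaptor and phosphatase genes, 3 were over 2-fold higher in neutrophil-like cells (Tyrobp, Hcst and Ptpn6), against 7.97% of all genes. In plasmacytoid dendritic cell-like cells 3 were (Tyrobp, Ptpn6 and Inpp5d), against 11%. Tyrobp, the DAP12 partner of Siglec-H, stood at 5196 and 4231 CPM in these classes. Alveolar macrophage-like cells had 2 (Fcer1g and Dok2, the latter the adaptor that CD200R1 recruits), against 11.5%. Dok2 was also over 2-fold higher in C1q and Arg1 and Mmp12 macrophage-like, basophil or mast cell-like and type 2 dendritic cell-like cells. So it was in natural killer and T cell-like cells, with Cd200r1 at 1.52 and 14.7 CPM. Rasa1, also named above, was over 2-fold higher only in natural killer, aerocyte, capillary and lymphatic endothelial-like cells, with Cd200r1 at 5.71 CPM or less. Nonclassical monocyte-like cells had the most with 6, against 6.71%, while no member was over 2-fold higher there. Of 15 genes for making, exporting or transferring sialic acid, B cell-like cells had 3 (Cmah, St6gal1 and St8sia4), against 11.2% of all genes. St6gal1, which makes the alpha-linked sialic acid that CD22 binds, was 131.3 CPM in B cell-like cells, its highest class. Aerocyte-like cells had 5, against 18.8% of all genes, and capillary ones 4, against 19.4%. Both sets held St3gal6, at 248.7 and 179.7 CPM, and alveolar macrophage-like cells had 0, against 11.5%. Of 4 genes for removing sialic acid, the sialidase Neu1 and its protective partner Ctsa were over 2-fold higher in alveolar macrophage-like cells, at 145.0 and 460.3 CPM, and in Arg1 and Mmp12 macrophage-like cells, at 111.2 and 543.6. The shares of all genes in these classes were 11.5% and 5.55%. All these lists are short, and none was tested as a set.

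The genes most like each member over the 28 classes were ranked by Pearson r of log2(CPM + 1) among 14039 genes, members and class markers left out. Classes share libraries and depth, so r is a description. Siglecf was most like Olr1 (0.88), Rufy4 (0.87) and Cxcr1 (0.82), Siglece most like the complement receptor gene C5ar1 (0.93), and Cd33 most like Arl11 (0.87). Siglecg was most like H2-Ob (0.91) and Cd22 most like Ighg1 (0.85). Siglech was most like Cd300c (0.91), Siglec1 most like 4933417E11Rik (0.91), Tfec (0.89) and the scavenger receptor gene Msr1 (0.89). Cd200 was most like Apbb2 (0.85), Cd200r1 most like Tnf (0.77), and Cd200r3 most like the cytokine gene Il4 (0.87).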

How the data were processed

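The deposited matrix holds raw UMI counts per gene and barcode for 7 pooled 10x libraries, which the authors made with Cell Ranger (3.1.0 in the file header). The submitters' processing notes also name STAR and mm10. By the study's methods reads may have been downsampled between libraries before counting, and later limits at 2 SD around the mean UMIs and genes per barcode, which the deposited matrix precedes, were meant to remove poor cells and likely multiplets. The library number was read from the barcode suffix, and no per-sample column of another series was present (0).

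Barcodes with at most 10% mitochondrial UMIs were kept (Python 3.11.15, numpy 2.4.6, scipy 1.17.1, scanpy 1.11.5). Counts were scaled to 10000 per cell and logged, 2000 variable genes without any member or listed gene were reduced to 30 components, mutual nearest neighbors (20) served to align the libraries, and Leiden clustering followed (leidenalg 0.10.2, resolution 0.8). Clusters were named from fixed markers. Leaving mixed clusters (661 cells) unnamed and dividing the basophil or mast cell cluster were decided after the data were seen. Scrublet's calls (709 barcodes) were removed in an alternative only.

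Counts were summed per class and divided by the UMIs of the class. With 1 pooled sample there are no replicates and no test, and intervals cover counting error only. A zero is read against a floor of 3 counts. All members were described in every class, with the 3 genes most like each, and a member was taken as detected in a class from 10 UMIs. Members, lists and markers were chosen with earlier results of these data known. The scripts were tested on simulated data. The tried alternatives were other limits on barcodes, doublet removal, no alignment, other resolutions, no clustering, equal weight of libraries and leaving libraries out.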

Additional observations from a re-analysis of the deposited data

Results flagged for a closer look

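The 3726 barcodes over the mitochondrial limit enter no comparison of the report, and all 10 members stood above the limit that a count of 0 allows there (0.220 CPM from 3 counts). Siglecf was 22.8 CPM (20.3 to 25.5) in them against 18.5 in the kept cells, Cd200 was 106.6 (101.2 to 112.3) against 81.0, and Cd200r1 was 39.7 (36.4 to 43.2) against 34.2. Siglecg was 79.0 against 53.7, Cd22 63.9 against 46.9, Siglec1 9.45 against 6.82 and Siglech 9.45 against 8.27. Lower than in the kept cells were Cd33 at 41.7 against 51.4, Siglece at 10.8 against 19.6 and Cd200r3 at 1.54 against 2.18. Their median depth was 2100.5 UMIs, against 6684.5 in the kept cells.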

How the results depend on the processing

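Levels in CPM are for alveolar macrophage-like cells for Siglecf, Siglec1 and Cd200r1, neutrophil-like for Siglece and Cd33, B cell-like for Siglecg and Cd22, and the highest class for the others. For each setting the values that left their counting interval are given. With the study's limits on UMIs and genes the levels were Siglecf 144, Siglecg 402.8, Cd200r1 107.6 and Cd200r3 885.1. With a mitochondrial limit of 5% the levels were Siglecf 123.7, Siglecg 322, Siglec1 22.4, Cd22 250.8, Cd200 1094, Cd200r1 73.6 and Cd200r3 952.1. With Scrublet doublets removed the levels were Siglecf 88.6, Cd200 1102 and Cd200r3 887.2. With no alignment of libraries the levels were Siglece 204, Siglecg 331.1, Siglech 3061, Cd22 215.7, Cd33 486.7, Cd200 1082 and Cd200r3 961.6. With resolution 0.4 the levels were Siglecf 86.8, Siglecg 409.7, Siglec1 27.9, Cd22 287.3 and Cd200 1081. With resolution 1.5 the levels were Siglecf 132.3, Siglecg 403.7, Cd200r1 101.3 and Cd200r3 848.7. With classes made without clustering the levels were Siglecf 105.9, Siglece 157.9, Siglecg 428.6, Siglech 2052, Cd22 295.6, Cd33 385.4, Cd200 1114, Cd200r1 121.2 and Cd200r3 1015. With the median over libraries the levels were Siglecf 87, Siglecg 332.7, Siglech 3319, Cd22 214.5, Cd200 871.6 and Cd200r1 137.3. With libraries 1, 2, 3 and 7 alone the levels were Siglece 204.1, Siglecg 327.9, Cd22 210.1 and Cd33 489.1. With mixed clusters kept in their class, a setting added after the data were seen, the levels were Siglece 164.6 and Cd33 390.8.

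Leaving out 1 library at a time gave 67.3 to 115.7 CPM for Siglecf (lowest without library 3), 179.7 to 206.3 for Siglece, 377.5 to 402.2 for Siglecg, 2618 to 3017 for Siglech, 28.5 to 31.0 for Siglec1, 253.0 to 283.4 for Cd22, 437.6 to 492.4 for Cd33, 806.3 to 1023 for Cd200, 111.6 to 145.5 for Cd200r1 and 565.3 to 753.2 for Cd200r3. The log2 difference of Siglecf between alveolar macrophage-like and Ccr3-positive cells, 0.92 in the report, ranged from 0.17 to 2.44 in the same way. With 2 or more Ccr3 UMIs it was -0.055, with an interval that holds both signs (-0.80 to 0.82). It was reversed at -1.14 (-1.66 to -0.58) for Ccr3-positive cells of the basophil or mast cell cluster. For the eosinophil-like subcluster it was reversed at -1.60 (-2.04 to -1.13), and both of these settings were added after the data were seen. Against the eosinophil-like cluster that formed in other settings it was -1.44 without Scrublet doublets, -1.68 without alignment, -0.73 with the study's limits and 0.43 at resolution 1.5. For all macrophages against the Ccr3-positive cells of the report it was 0.42. The causes were not tested. A mitochondrial limit of 5% gave no plasmacytoid dendritic cell class, and with it and at resolution 0.4 no eosinophil-like cluster formed. No paired analysis was possible because the libraries are not tied to groups or replicates. Depth limits the eosinophil-like values, with 42 Siglecf UMIs in 220 cells.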

Other observations

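Of 12 pairs of members compared within a class, 11 were found in the same cells 0.932 to 1.13 times as often as independent detection would give. The other was Siglecf with Cd200r3 in the basophil or mast cell-like class, in 17 cells where 11.5 follow from the 2 shares (1.48 times). That class mixes 220 eosinophil-like cells, which had no Cd200r3 UMI but most of its Siglecf UMIs, with 97 basophil or mast cell-like cells. The pair was not counted within these parts, so the ratio does not describe either of them. In alveolar macrophage-like cells 1330 of 3108 cells had UMIs of both Siglecf and Cd200r1, where 1247 follow from the 2 shares, and 662 had both Siglecf and Siglec1, where 586.4 follow. In B cell-like cells 3209 of 4957 had both Siglecg and Cd22, where 3135 follow. In neutrophil-like cells 93 had both Siglecf and Cd33, where 99.8 follow. Deeper cells have more of every gene, and the part of depth in these counts was not tested.

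The eosinophil-like cells also had Siglecg at 83.4 CPM (43.1 to 145.6, 12 UMIs), Cd33 at 90.3 (48.1 to 154.4, 13 UMIs) and Cd200r1 at 62.5 (28.6 to 118.7, 9 UMIs). Siglec1, Siglech, Cd22 and Cd200 were at 0 UMIs in them, which allows up to 20.8 CPM (3 counts). Itgax was 312.6 CPM and Itgam 1556 in these cells.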
